A study of Homo sapiens with 6 samples.

Results

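Interferon regulatory factors (IRFs) and signal transducers and activators of transcription (STATs) are 2 families of DNA-binding proteins that carry cytokine and interferon signals into the nucleus. The genes described here are IRF1, IRF2, IRF3, IRF7, IRF9, STAT2, STAT3 and STAT6, taken by symbol, 8 of the 64253 genes counted. Each was found once. Their RNA was compared between CdGAP-depleted (shCdGAP) and control shRNA (shCon) cells of PC-3, an established human prostate cancer line. CdGAP, encoded by ARHGAP31, is a GTPase-activating protein for Rac1 and Cdc42. There were 3 libraries in each group, and all cells carried a lentiviral short-hairpin construct, directed at CdGAP or, in shCon, a control sequence. Per the methods, shCdGAP lines were grown from single cells after puromycin selection. The clone that was sequenced is not named and the origin of the control line is not described in the same way, so a difference between clones cannot be told apart from the effect of depletion.

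In resting cells IRF3, IRF7 and the STAT proteins wait in the cytoplasm. Viral nucleic acid leads to phosphorylation of IRF3 and IRF7, which switch on interferon genes. Secreted interferons then bind receptors whose Janus kinases phosphorylate STAT proteins. Type I interferon assembles the complex ISGF3, of which STAT2 and IRF9 are parts and which binds the interferon-stimulated response element (ISRE). Interferon gamma acts mainly at gamma-activated sites (GAS), and IRF1 is a well-known gene of that route. IRF2 binds the same elements as IRF1 and often opposes it. STAT3 serves the interleukin 6 family, and STAT6 serves interleukins 4 and 13. Levels of RNA, as measured here, do not show whether any of these proteins was phosphorylated or in the nucleus.

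Promoters of some of these genes hold the elements that the family itself binds, and those stretches are printed to show where the letters lie. Windows from 250 bases before to 50 bases after a start were taken from RefSeq (GRCh38.p14) and searched on both strands for an ISRE core, GAANNGAAA, and for a GAS, TTCNNNGAA. Windows were held for 5 of the 8 genes, IRF1, IRF9, STAT2, STAT3 and STAT6. The windows of STAT2, STAT3 and STAT6 had neither run of letters. IRF1 had a GAS 124 bases before its start, and IRF9 had a GAS 63 and an ISRE core 36 bases before its start. Of the other family genes, IRF5, STAT4 and IRF8 had matches to the ISRE core. Those of IRF5 and STAT4 are shown because both changed in the comparison, while IRF8 had no reads. In the sequences below, written 5′ to 3′ on the gene's strand, capitals mark the matches, none of which overlapped another. The IRF1 stretch is chr5:132490859-132490927, minus strand. The IRF9 sites are chr14:24161193-24161219 and chr14:24161220-24161246, plus strand, and lie within an exon of the annotation used for counting. The IRF5 stretch is chr7:128940607-128940669, plus strand, with the ISRE core on the opposite strand. The STAT4 stretch is chr2:191151742-191151834, minus strand, with 2 ISRE cores.
IRF1, GAS: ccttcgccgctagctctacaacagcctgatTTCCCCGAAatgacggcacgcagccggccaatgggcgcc
IRF9, GAS: ccacgtgatTTCTGGGAAaaggccctc
IRF9, ISRE core: cctggaggaGAACTGAAActtagggtg
IRF5, ISRE core: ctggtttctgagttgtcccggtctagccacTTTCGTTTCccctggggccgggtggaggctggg
STAT4, ISRE cores: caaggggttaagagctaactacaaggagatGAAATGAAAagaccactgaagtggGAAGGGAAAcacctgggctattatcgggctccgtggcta

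Of all 35116 windows, 2691 (7.66%) held the ISRE core and 2689 (7.66%) the GAS. Among 42 windows of the interferon-stimulated genes described further on, 19 (45.2%) held the ISRE core and 9 (21.4%) the GAS. That list was drawn up as genes known for ISRE promoters, so its share is a description of the list. A match is a run of letters and was not measured as a bound site.

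Libraries held 33182796 to 43154039 counted reads. Depletion was checked first. ARHGAP31 had 1072, 1181 and 926 reads in shCdGAP libraries 1, 2 and 3, and 2472, 2557 and 1923 reads in shCon libraries 1, 2 and 3. The fall was 1.14 on the log2 scale (SE 0.0409, adjusted p = 8.75e-08), a level 0.453 times that of control. For a clone of its shCdGAP PC-3 cells the paper reports a larger reduction of CdGAP mRNA and protein, measured by other methods. Whether that clone was sequenced is not stated. Library 2 of shCdGAP stood apart from its partners. Pairs with it differed by a chi-square of 31.5 and 38.5 per degree of freedom, against 3.56 for libraries 1 and 3 and 2.79 to 7.75 among shCon pairs. Values with and without it are given where they matter. Levels are given in CPM, counts per 1000000 of the scaled library size. The epithelial keratin KRT8 was at 193 ± 9.44 CPM in shCdGAP and 185 ± 1.30 CPM in shCon (SD, n = 3 each) and KRT18 was at 270 ± 24.5 and 253 ± 3.91 CPM. Of blood cell markers, CD3E had no read, PTPRC at most 1, CSF1R at most 2 and ITGAM at most 4. CD14 had 7, 11 and 9 reads in shCdGAP and 9, 10 and 4 in shCon. Of vessel markers, PECAM1 had 96, 261 and 93 reads against 236, 230 and 181 (log2 fold change -0.57, adjusted p = 0.181). Without shCdGAP library 2 its log2 fold change was -1.14 and passed (adjusted p = 1.49e-10). Connective tissue genes on the same list of other cell types were measured, COL1A1 among them at 57.1 ± 1.86 CPM in shCdGAP and 18.0 ± 0.891 in shCon (n = 3 each). Of 12 genes on that list 4 were tested. COL1A1, LUM and PDGFRB, 3 of these 4, rose and none fell, beside 24.1% and 22% of all tested genes. The summed level of the 12 listed genes was 61.5 to 69.1 CPM in shCdGAP and 23.8 to 25.1 CPM in shCon. Whether a change in cell mixture had a part in any result was not tested, and in bulk RNA fewer cells of a type and less RNA per cell cannot be told apart.

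IRF7, STAT2 and IRF2 rose in CdGAP-depleted cells, and none of the 8 genes fell. These are the 3 that passed an adjusted p of 0.01 by edgeR's quasi-likelihood test, of 7 genes with enough reads to test. Over all 16439 tested genes 24.1% passed as higher and 22% as lower, so a share of this kind is frequent in these cells. With an absolute log2 fold change above 1 required as well, IRF7 alone passed. That limit was passed as higher by 8.56% and as lower by 4.19% of all tested genes. In 5 of the 7, IRF1, IRF2, IRF3, IRF7 and STAT2, every shCdGAP library lay above every shCon library, as did 34.4% of all tested genes. None lay wholly below, against 32.7% of all tested genes. The median log2 fold change was 0.32 over the 7 genes and 0.01 over all genes tested.

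**Figure D1:**
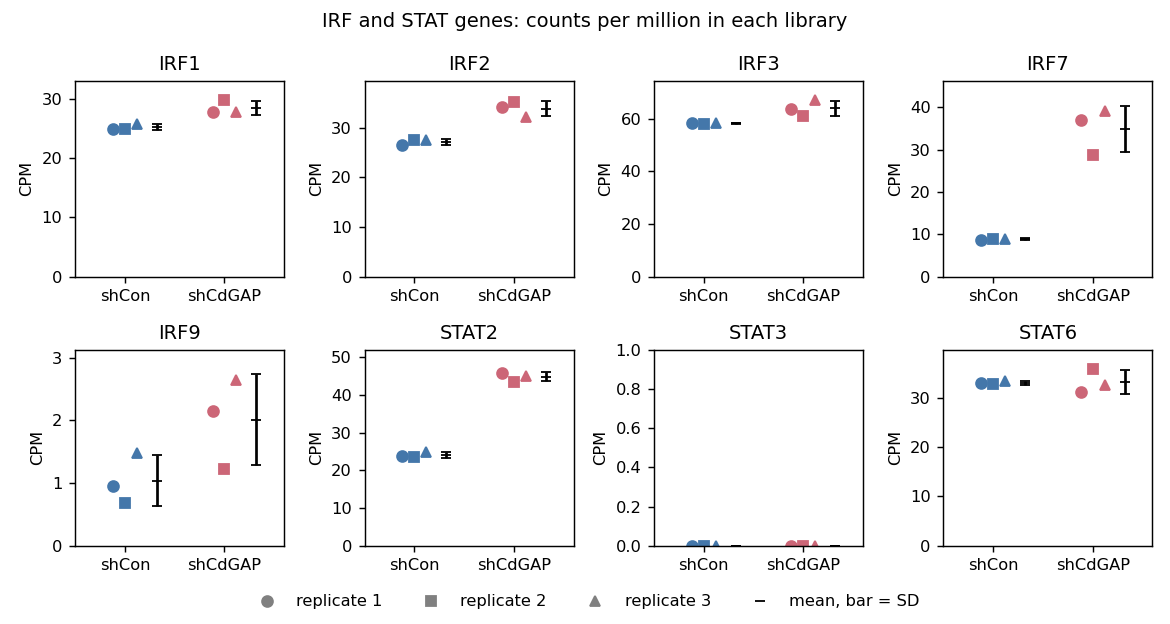
CPM of the 8 genes in each library, with the mean and SD of 3 libraries beside the points; each panel has its own axis, which starts at 0. IRF7 and STAT2 are well separated between shCon (blue) and shCdGAP (red), STAT6 overlaps, and STAT3 is at 0 in all 6 libraries.

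IRF7 is the interferon-inducible partner of IRF3 and drives the broad set of alpha interferon genes. It lies on the minus strand of chromosome 11 from 612553 to 615999 (ENSG00000185507, GRCh38). It had 1501, 1252 and 1344 reads in shCdGAP libraries 1, 2 and 3, and 360, 379 and 296 in the shCon libraries. In CPM these were 37.0, 28.7 and 39.1 against 8.58, 8.98 and 8.96. The lowest depleted library thus stood at more than 3 times the highest control, and the spread within shCdGAP came mainly from library 2. The log2 fold change was 1.98 (SE 0.115, adjusted p = 2.07e-06), from 8.84 ± 0.225 to 35 ± 5.48 CPM (SD, n = 3 each). Leaving out each library in turn gave 1.88 to 2.10. The genes on either side, PHRF1 330 bases away (log2 fold change -0.03, adjusted p = 0.590) and DEAF1 (-0.12, adjusted p = 0.0271), did not pass.

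IRF3, which is made constitutively and acts first in the response to viral nucleic acid, differed by a small amount that did not pass. The gene is on chromosome 19 from 49659569 to 49665875, minus strand (ENSG00000126456). It had 2578, 2671 and 2309 reads in shCdGAP and 2449, 2446 and 1929 in shCon. The CPM were 63.6, 61.3 and 67.2 against 58.4, 58.0 and 58.4, so the groups were apart by a narrow gap. Its log2 fold change of 0.14 (SE 0.0434, 95% interval 0.05 to 0.22) had an adjusted p of 0.0235. Without shCdGAP library 2 it was 0.16 and passed (adjusted p = 0.000159), the single alternative of 12 in which it did. Exons of BCL2L12 on the opposite strand overlap those of IRF3 by 734 bases, and BCL2L12 fell by 0.24 (adjusted p = 0.000781). Counting was by strand per the file headers.

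The balance between these partners therefore differed. Per kilobase of exon, IRF7 stood at 0.841, 0.677 and 0.840 times IRF3 in the shCdGAP libraries and at 0.212, 0.224 and 0.222 times IRF3 in the shCon libraries. The ranges do not overlap, and the control ratios lie within a narrow band.

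STAT2, a part of ISGF3, rose in a nearly even manner. It lies on chromosome 12 from 56341597 to 56360155, minus strand (ENSG00000170581). It had 1863, 1898 and 1553 reads in shCdGAP and 1000, 993 and 822 in shCon. Scaled to CPM, these were 45.9, 43.6 and 45.2 against 23.8, 23.5 and 24.9. All depleted libraries were close to one another, library 2 included. The log2 fold change was 0.90 (SE 0.0466, adjusted p = 6.33e-07), from 24.1 ± 0.708 to 44.9 ± 1.21 CPM (SD, n = 3 each). It ranged from 0.87 to 0.91 with each library left out, and its neighbours IL23A (0.56, adjusted p = 0.0244) and TIMELESS (0.06, adjusted p = 0.629) did not pass.

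IRF9, the DNA-binding subunit of ISGF3, was measured from few reads and its call depended on the analysis. The gene is on chromosome 14 from 24161053 to 24166565, plus strand (ENSG00000213928). It had 87, 53 and 91 reads in shCdGAP and 40, 29 and 49 in shCon. The corresponding CPM were 2.15, 1.22 and 2.65 against 0.953, 0.687 and 1.48, and shCdGAP library 2 lay below shCon library 3. Its log2 fold change of 0.95 (SE 0.349, 95% interval 0.27 to 1.64) did not pass (adjusted p = 0.0432). With the replicate number as a block the same change passed, with an adjusted p of 0.00249, library 2 being the lowest of both groups. Without shCdGAP library 2 it was 1.22 and passed (adjusted p = 1.58e-05), and with no filter on low counts it was 0.96 and passed (adjusted p = 2.60e-05). The other 9 alternatives did not pass, with an adjusted p of up to 0.145.

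Part of IRF9 could not be counted. Of its 3794 exon bases, 1838 also belong to ENSG00000259529, a gene model on the same strand that runs through IRF9, and reads in shared bases were assigned to neither. That model had 31, 21 and 29 reads in shCdGAP and 37, 23 and 42 in shCon, with a log2 fold change of -0.36 (adjusted p = 0.391). The level of IRF9 is therefore an underestimate, and its low rank among these genes rests on the remaining 1956 bases.

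Within each library the ratio of STAT2 to IRF9 per kilobase of exon was 6.86, 11.5 and 5.46 in shCdGAP and 8, 11 and 5.37 in shCon. The groups overlapped, and library 2 had the highest ratio in both.

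IRF2, the antagonist of IRF1 at shared elements, rose by a small amount that was larger than the spread between libraries. On chromosome 4, it runs from 184387713 to 184474580, minus strand (ENSG00000168310). It had 1385, 1527 and 1104 reads in shCdGAP and 1107, 1155 and 908 in shCon. In CPM they came to 34.2, 35.1 and 32.1 against 26.4, 27.4 and 27.5, with no overlap. The log2 fold change was 0.32 (SE 0.0506, adjusted p = 0.000581) and passed in all 12 alternatives. Beside it, IRF2-DT, a transcript from the opposite strand that starts 221 bases away, had 57, 87 and 50 reads against 19, 27 and 20 and rose by 1.52 (SE 0.227, adjusted p = 0.000413). LINC02362 on the other side, with 24 or fewer reads in any library, rose by 2.54 (adjusted p = 0.00361).

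IRF1, an early gene of interferon gamma signalling and an activator of antigen presentation genes, was slightly higher without passing. It lies on chromosome 5 from 132481609 to 132490798, minus strand (ENSG00000125347), and its promoter holds the GAS printed above. It had 1131, 1299 and 955 reads in shCdGAP and 1046, 1056 and 851 in shCon. CPM values were 27.9, 29.8 and 27.8 against 24.9, 25.0 and 25.8, again without overlap. The log2 fold change was 0.18 (SE 0.0501, 95% interval 0.08 to 0.27, adjusted p = 0.0140). Scaled by library size alone it was 0.20 and passed (adjusted p = 0.00785), the one alternative of 12 in which it did. The ratio of IRF1 to IRF2 per kilobase of exon was 0.326, 0.340 and 0.346 in shCdGAP and 0.378, 0.365 and 0.374 in shCon, lower in every depleted library.

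STAT6, the mediator of interleukins 4 and 13, had overlapping levels in the 2 groups. It lies on chromosome 12 from 57095408 to 57132139, minus strand (ENSG00000166888). It had 1265, 1558 and 1121 reads in shCdGAP and 1386, 1380 and 1105 in shCon. Expressed as CPM, these were 31.2, 35.8 and 32.6 against 33.0, 32.7 and 33.4, so library 2 of shCdGAP was the highest of all 6 and library 1 the lowest. The log2 fold change was 0.01 (SE 0.0573, adjusted p = 0.929), and its 95% interval runs from -0.11 to 0.12. Its sign changed in 4 alternatives, none of which passed. Against STAT2 within each library the levels parted, with a STAT2 to STAT6 ratio per kilobase of 1.76, 1.46 and 1.66 in shCdGAP and 0.862, 0.860 and 0.889 in shCon. STAT6 shares 59 exon bases with LRP1 on the opposite strand, which rose by 1.12 (adjusted p = 4.06e-05), and 69 with NAB2, which did not pass.

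**Figure D2:**
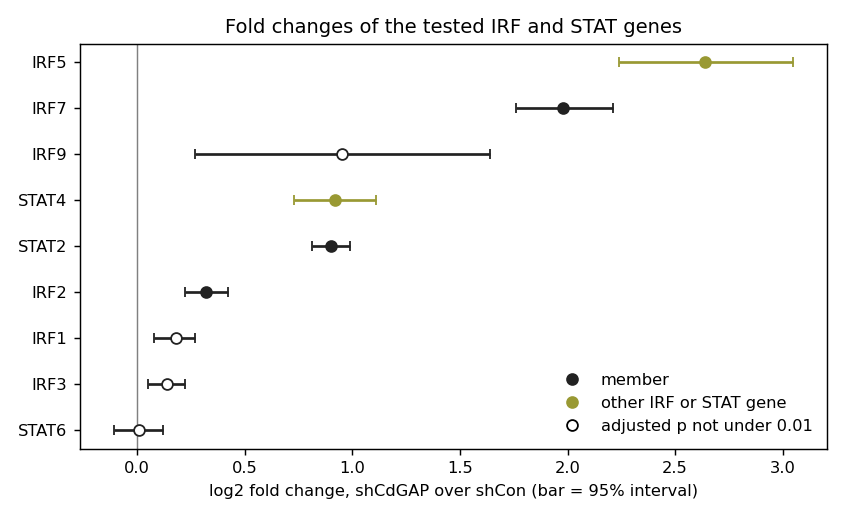
Log2 fold change (shCdGAP over shCon) of 9 tested IRF and STAT genes, with bars for the 95% interval; filled points passed an adjusted p of 0.01, black points are the 7 tested of the 8 genes and olive points other family genes. IRF5 and IRF7 lie highest at 2.64 and 1.98, STAT4 and STAT2 at 0.92 and 0.90, and STAT6 at 0.01.

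STAT3, the transducer of interleukin 6 signals, had 0 reads in all 6 libraries and could not be tested. The gene spans chromosome 17 from 42313324 to 42388568, minus strand (ENSG00000168610). A count of 0 allows up to 3 reads, or 0.0689 to 0.0908 CPM depending on the library, for counting error only. The genes beside it were also without reads. An unbroken run of 19 annotated genes from 42101404 to 42440259, 339 kb, had at most 3 reads in every library. In fact 18 of them had 0, and the run held 1 read in all, in DHX58.

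The run includes STAT5A and STAT5B, which lie next to STAT3, and also genes of general cell function such as KAT2A, a histone acetyltransferase, RAB5C, an endosomal GTPase, and CAVIN1, a coat protein of caveolae. DHX58 encodes LGP2, a viral RNA sensor. The next gene on one side, ATP6V0A1, had 1, 7 and 8 reads in shCdGAP and 1, 2 and 4 in shCon. Reads were plentiful again at NAGLU, with 348, 450 and 322 against 373, 359 and 290, and at DNAJC7 on the other side, with 3621, 3545 and 3006 against 4363, 4602 and 3363. NAGLU did not pass (log2 fold change 0.11, adjusted p = 0.297). DNA was not measured, and why these genes had no reads was not tested. As both groups were at 0, the comparison of shCdGAP with shCon cannot be made for STAT3, STAT5A or STAT5B.

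**Figure D3:**
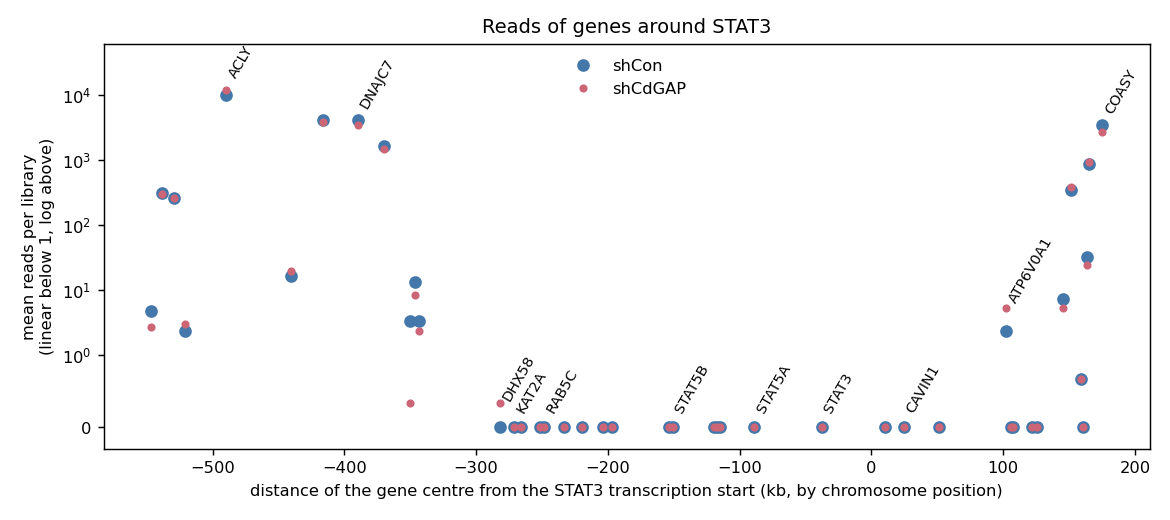
Mean reads per library of annotated genes around STAT3, by distance in kb of the gene centre from the STAT3 transcription start (y axis linear below 1 and logarithmic above). Genes from DHX58 to CAVIN1 lie at or next to 0 in both shCon (large blue points) and shCdGAP (small red points), with COASY, DNAJC7 and ACLY far higher on either side.

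Of other family genes, IRF4, IRF5, IRF8, STAT4, STAT5A and STAT5B were examined. The 2 that could be tested, IRF5 and STAT4, rose, beside 24.1% of all tested genes. IRF5, a mediator of Toll-like receptor signals, had 210, 203 and 176 reads in shCdGAP and 21, 42 and 30 in shCon, a log2 fold change of 2.64 (SE 0.207, adjusted p = 7.80e-06). STAT4, the transducer of interleukin 12, had 300, 305 and 239 reads against 162, 146 and 132 and rose by 0.92 (SE 0.0969, adjusted p = 4.87e-05). IRF4 was too low to test, with 10, 8 and 10 reads against 1, 2 and 0, and IRF8, STAT5A and STAT5B had none.

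Levels between the 8 genes, IRF5 and STAT4 were compared as CPM per kilobase of countable exon. In shCon the order began with IRF3 (15.4 ± 0.0646), IRF2 (8.69 ± 0.193), STAT6 (4.53 ± 0.0513) and STAT2 (3.94 ± 0.116), all with SD and n = 3. IRF7 (3.36 ± 0.0854) and IRF1 (3.24 ± 0.0581) followed, and their ranges, 3.27 to 3.42 and 3.20 to 3.30, overlapped. STAT4, IRF9 and IRF5 lay below 1. In shCdGAP, IRF3 (16.9 ± 0.778) again led, and IRF7 had moved from rank 5 to rank 2 at 13.3 ± 2.08. Its range of 10.9 to 14.9 overlapped that of IRF2, 10.3 to 11.3, so the order of those neighbours was not settled. STAT2 (7.35 ± 0.198), STAT6 (4.55 ± 0.321), IRF1 (3.65 ± 0.147), STAT4 (1.67 ± 0.0575), IRF5 (1.14 ± 0.0649) and IRF9 (1.02 ± 0.371) came after. The range of IRF5, 1.07 to 1.18, lay within that of IRF9, 0.622 to 1.35, and STAT3 was at 0 in both groups.

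Other genes of the pathways were taken from lists drawn up by role. Over all tested genes 24.1% passed as higher and 22% as lower, and counts on each list are to be read beside those shares. Among 20 ligands that act through STATs, 12 had no read in any library, including IFNB1, IFNG, IFNA1, IFNA2, IL4, IL13 and OSM. Of 6 tested, 1 rose and none fell. That gene was LIF, of the interleukin 6 family, by 0.20 (SE 0.0447, adjusted p = 0.00424). It did not pass without shCdGAP library 1 or 3 or without any 1 of the shCon libraries, with an adjusted p of 0.0126 to 0.0402. The interferon IFNE had 43, 33 and 24 reads against 17, 22 and 22, without overlap (log2 fold change 0.68, SE 0.264, adjusted p = 0.0505), and IFNL1 had at most 1 read. IL11, of the interleukin 6 family, had 91, 38 and 94 reads against 39, 31 and 16 (log2 fold change 1.4, SE 0.440, adjusted p = 0.0263). It passed without shCdGAP library 2 (1.74, adjusted p = 1.93e-09), by DESeq2 (0.00267) and with no filter on low counts (3.00e-08). IFNE, IFNL1 and IL11 were chosen after their values were seen. IL6 itself had 9, 10 and 12 reads in shCdGAP and 2, 5 and 5 in shCon and was not tested. RNA of the 12 ligands without reads was not detectable at this depth, where a count of 0 allows up to 3 reads.

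Of 18 receptor genes 15 were tested, 3 rose and 5 fell, beside 24.1% and 22% of all tested genes. Their median log2 fold change was -0.10. IL13RA2, which binds interleukin 13 and is usually described as a decoy, had 6922, 6117 and 5950 reads against 1358, 1510 and 1052 and rose by 2.27 (SE 0.0888, adjusted p = 3.03e-07). The signalling chains for the same cytokines fell, IL13RA1 by 0.65 (SE 0.0372, adjusted p = 1.19e-06) and IL4R by 0.43 (SE 0.0616, adjusted p = 0.000326). These receptors signal through STAT6, whose own log2 fold change was 0.01. IL22RA1 rose by 0.86 (adjusted p = 0.00178) but did not pass without shCon library 1 (0.0123) or 3 (0.0106).

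Interferon receptor chains went both ways. IFNLR1, the specific chain for lambda interferons, named after its values were seen, rose by 0.44 (SE 0.0925, adjusted p = 0.00317), though not without shCon library 1 (0.0179), 2 (0.0184) or 3 (0.0173). IFNGR1, named likewise, was at 0.06 (adjusted p = 0.334). IFNAR1 fell by 0.15 (SE 0.0325, adjusted p = 0.00318), but with the replicate block the adjusted p was 0.0114, and without shCon library 1, 2 or 3 it was 0.0108, 0.0137 or 0.0126. IFNAR2 had a log2 fold change of -0.10 (adjusted p = 0.125), and passed without shCdGAP library 2 at -0.16 (adjusted p = 0.00131). IFNGR2, a chain of the interferon gamma receptor, fell by 0.53 (SE 0.0999, adjusted p = 0.00261). It did not pass without shCdGAP library 1 (adjusted p = 0.0115). IL6ST, the shared chain of the interleukin 6 family, was at -0.12 (adjusted p = 0.0310) and passed without shCdGAP library 2 (-0.09, adjusted p = 0.00185).

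The 4 Janus kinases divided. JAK2, which serves the interferon gamma receptor among many others, fell from 1342, 1338 and 999 reads in shCon to 616, 590 and 505 in shCdGAP, by 1.11 on the log2 scale (SE 0.0595, adjusted p = 7.68e-07). It lies on chromosome 9 from 4985033 to 5128183 and passed in all 12 alternatives. TYK2 and JAK1 serve the type I receptor. TYK2 rose by 0.23 (SE 0.0452, adjusted p = 0.00229), though not without shCdGAP library 1 (0.0106) or shCon library 1 (0.0202) or 2 (0.0227). JAK1 was at -0.10 (adjusted p = 0.0597) and passed at -0.08 without shCdGAP library 2 (adjusted p = 0.00918). JAK3 rose by 0.61 (SE 0.144, adjusted p = 0.00581), though not without shCdGAP library 3 (0.0207) or shCon library 1 (0.0318) or 2 (0.0286).

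Of 18 genes that sense nucleic acid or lead to IRF3 and IRF7, 16 were tested, 5 rose and 4 fell. Among all tested genes 24.1% rose and 22% fell. IFIH1, which encodes the RNA sensor MDA5, rose by 0.71 (SE 0.0626, adjusted p = 1.66e-05). RIGI, its relative, rose by 0.45 (adjusted p = 0.00495) but did not pass when shCdGAP library 1 or 3 or any 1 shCon library was left out (0.0103 to 0.0290). TLR4 fell by 0.97 (SE 0.0743, adjusted p = 6.95e-06), and MYD88, the adaptor through which IRF7 and IRF5 are reached from Toll-like receptors, fell by 0.71 (SE 0.0812, adjusted p = 9.60e-05). TLR3, named after its values were seen, went the other way from few reads. It had 38, 45 and 21 reads against 14, 5 and 5 and rose by 2.07 (SE 0.38, adjusted p = 0.00139). Of the kinases that phosphorylate IRF3 and IRF7, TBK1 was at 0.00 (adjusted p = 0.967) and IKBKE fell by 0.37 (SE 0.0429, adjusted p = 9.42e-05).

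All 20 inhibitors and binding partners could be tested, of which 6 rose and 4 fell, beside 24.1% and 22% of all tested genes. SOCS1, the inducible brake on interferon receptors, had 158, 194 and 136 reads against 81, 56 and 57 and rose by 1.31 (SE 0.156, adjusted p = 0.000107). SOCS3, the brake on the interleukin 6 family and a known STAT3 target, fell by 0.46 (SE 0.0528, adjusted p = 8.42e-05). PTPN6, a phosphatase, rose by 0.48 (adjusted p = 0.000871), and PIAS4, a SUMO ligase that restrains STATs, fell by 0.33 (adjusted p = 0.00122). USP18, an interferon-inducible inhibitor of the type I receptor, was at 0.08 (SE 0.119, 95% interval -0.15 to 0.31, adjusted p = 0.588).

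Targets were grouped by the factor they are known for. All 35 interferon-stimulated genes with ISRE promoters, the usual targets of ISGF3 and IRF7, were tested. Of these 31 rose and none fell, beside 24.1% and 22% of all tested genes. The median log2 fold change was 1.33, and 20 passed with a log2 fold change above 1, as did 8.56% of all tested genes. Every shCdGAP library lay above every shCon library for 33, and for 34.4% of all tested genes. The genes named are the 4 with the largest changes of those at an average log2 CPM not under 1. IFI27, a mitochondrial and nuclear envelope protein, had 1075, 407 and 1021 reads against 37, 36 and 49, a log2 fold change of 4.37 (SE 0.618, adjusted p = 0.00219). IFI6 had 3768, 1654 and 3439 against 357, 389 and 310, a change of 3.09 (SE 0.445, adjusted p = 0.00278). MX1, an antiviral GTPase, had 1052, 420 and 893 against 114, 118 and 87, a change of 2.91 (SE 0.451, adjusted p = 0.00247). In all 3, library 2 of shCdGAP was the lowest of its group and still far above control. BST2, which tethers virions to the cell surface, rose by 2.53 (SE 0.229, adjusted p = 1.97e-05).

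Calls for some of these genes were close to the threshold. IFI27 did not pass without shCon library 1 (adjusted p = 0.0116) or with no filter on low counts (0.0109). IFI6 did not pass without shCon library 1 (0.0113), with no filter (0.0105) or with the replicate block (2.98, adjusted p = 0.0101). MX1 did not pass without shCon library 1, 2 or 3 (0.0137, 0.0124 and 0.0108) or with no filter (0.0167). Across the list the count that rose was 24 to 34 with each library left out.

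**Figure D4:**
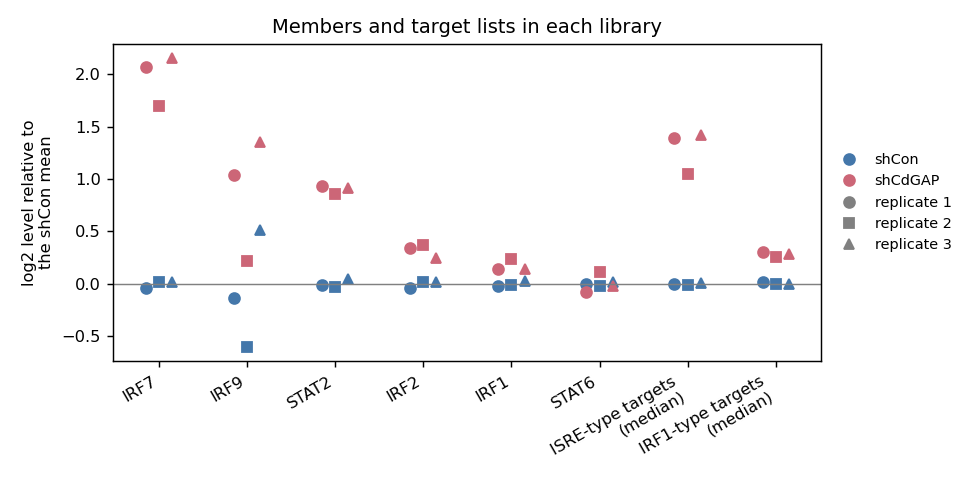
Log2 level in each library relative to the shCon mean for 6 of the genes and the median of 2 target lists (ISRE-type, 35 genes; IRF1-type, 29 genes); squares are library 2. IRF7, IRF9 and the ISRE-type median are lower in shCdGAP library 2 (1.70, 0.22 and 1.05) than in libraries 1 and 3, while STAT2 is nearly equal in all 3.

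IRF7, IRF9 and most interferon-stimulated genes were lowest in library 2 among the shCdGAP libraries. Relative to the shCon mean on the log2 scale, IRF7 stood at 2.07, 1.70 and 2.15 in shCdGAP libraries 1, 2 and 3, and IRF9 at 1.04, 0.22 and 1.35. For IRF9 the shCon libraries also varied, at -0.13, -0.60 and 0.51, with library 2 again the lowest, while for IRF7 they stood at -0.04, 0.02 and 0.02. The median of the ISRE-type list stood at 1.39, 1.05 and 1.42, and library 2 was the lowest shCdGAP library for 31 of its 35 genes. How often library 2 was the lowest over all tested genes was not counted. On other lists, library 2 was the lowest for 9 of 16 sensors and adaptors and 9 of 20 inhibitors. It was the lowest for 2 of 15 receptors and 3 of 18 STAT3 targets. STAT2, at 0.93, 0.86 and 0.91, and IRF3, at 0.13, 0.07 and 0.21, were also lowest in library 2, but by small amounts. IRF2, at 0.34, 0.37 and 0.25, IRF1, at 0.14, 0.24 and 0.14, and STAT6, at -0.08, 0.11 and -0.02, were highest there. The median of the IRF1-type list, at 0.30, 0.26 and 0.29, differed little between libraries. Of its 29 genes, library 2 was the lowest shCdGAP library for 15, library 1 for 8 and library 3 for 6.

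That second list held 30 genes known for interferon gamma and IRF1, of which 29 were tested. Their median log2 fold change was 0.24, and 14 rose and 2 fell, beside 24.1% and 22% of all tested genes. NLRC5, the activator of MHC class I genes, had 627, 661 and 557 reads against 114, 90 and 83 and rose by 2.67 (SE 0.101, adjusted p = 1.15e-07). GBP4, a guanylate-binding protein, had 780, 826 and 683 against 141, 118 and 101 and rose by 2.65 (SE 0.0849, adjusted p = 4.73e-08). PSMB9, an immunoproteasome subunit, rose by 2.05 (SE 0.0880, adjusted p = 2.22e-07) and GBP5 by 1.51 (SE 0.0980, adjusted p = 2.55e-06). IRF1 itself did not pass. The 2 that fell, named after their values were seen, were CXCL9, with 5, 4 and 4 reads against 25, 26 and 25 (-2.53, adjusted p = 9.49e-05), and IL15 (-0.99, adjusted p = 0.00479). IL15 passed in 7 of 12 alternatives, and did not pass without shCdGAP library 1 or 3 or any 1 shCon library (0.0118 to 0.0182).

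Genes known as STAT3 targets are given for comparison, since STAT3 had no reads. Of 20, 18 were tested, with a median of -0.09, and 2 rose and 6 fell, beside 24.1% and 22% of all tested genes. BCL3 fell by 0.82 (SE 0.0867, adjusted p = 5.55e-05), the survival gene BCL2L1 by 0.63 (SE 0.0543, adjusted p = 1.34e-05) and the acute-phase factor CEBPD by 0.58 (SE 0.0668, adjusted p = 9.15e-05). ICAM1, an adhesion molecule that is also on the IRF1 list, rose by 0.59 (SE 0.0664, adjusted p = 8.61e-05). Without shCdGAP library 2 the number that fell was 11. More genes of all kinds were called lower in that fit. With an absolute log2 fold change above 1 required, they numbered 900, against 689 in the main fit.

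Of 13 STAT6 targets 7 were tested, 4 rose and 1, IL4R, fell, with a median log2 fold change of 0.57. CCL26, the chemokine eotaxin-3, had 230, 245 and 217 reads against 68, 61 and 48 and rose by 1.96 (SE 0.118, adjusted p = 1.64e-06). SERPINB4 rose by 0.90 (SE 0.114, adjusted p = 0.000193), but it is nearly identical to SERPINB3, so the assignment of its reads is uncertain. TGM2 rose by 0.57 (SE 0.104, adjusted p = 0.00202), though not without shCon library 3 (0.0111). POSTN, named after its values were seen, had 76, 48 and 55 reads in shCdGAP and none in shCon.

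**Figure D5:**
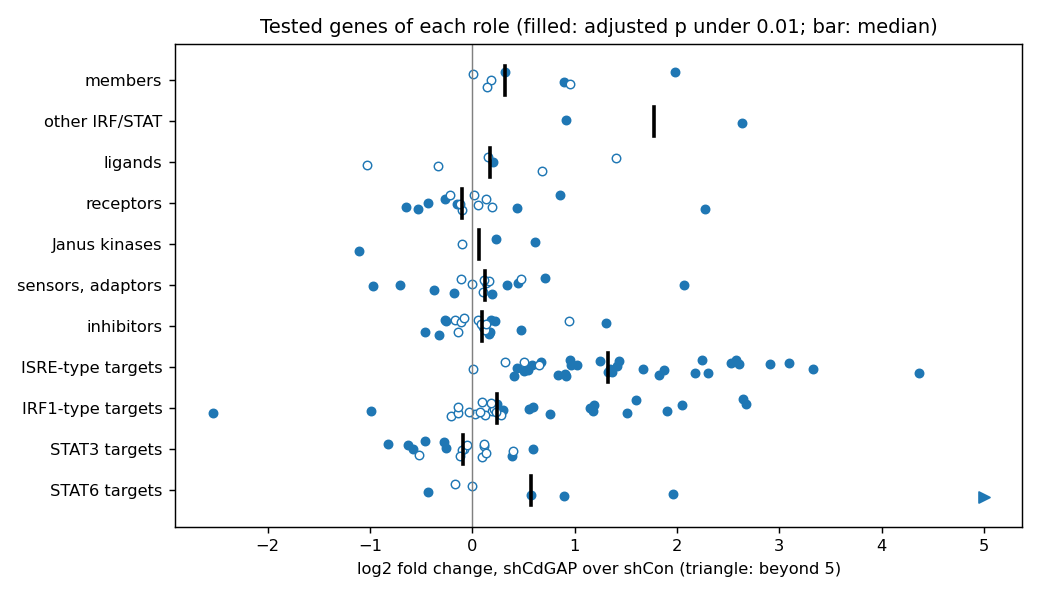
Log2 fold change (shCdGAP over shCon) of each tested gene by role, filled where the adjusted p was under 0.01, with a bar at the median; genes above 5 are drawn as a triangle at 5. The ISRE-type list lies almost wholly to the right, with a median of 1.33, while receptors (-0.10), Janus kinases (0.06), sensors and adaptors (0.12) and inhibitors (0.09) lie on both sides of 0.

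Lastly, genes with the most similar profile were sought by Pearson correlation of log2 CPM over the 6 libraries, among 10282 genes of sufficient level. With 3 points in each of 2 groups such values are high for many genes and are descriptions. IRF7 was closest to VPS9D1-AS1 (r = 0.9998), KRT75 (0.9996) and MOCOS (0.9996). STAT2 was closest to LPIN3 (0.9998), USE1 (0.9997) and PLBD2 (0.9996). The closest genes were HEY1 (0.9985), SUN1 (0.9982) and BMERB1 (0.9977) for IRF1 and SLC37A3 (0.9982), TUT1 (0.9977) and TNIP1 (0.9973) for IRF2. They were CYB561 (0.9968), RAB3IL1 (0.9953) and ASB16-AS1 (0.9946) for IRF3. For IRF9 and STAT6, whose groups overlapped, the best values were lower, 0.9892 with ACAP3 and 0.9859 with RARG. CCNL2 and DMTF1 followed for IRF9 (0.9867 and 0.9824) and RNMT and LAPTM4A for STAT6 (0.9681 and 0.9673).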

How the data were processed

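RNA of 3 shCdGAP and 3 shCon PC-3 samples was sequenced. What the authors deposited is 1 table of unnormalized gene counts for each sample. Per the methods and the submitters' processing notes, reads were aligned to GRCh38 with STAR 2.5.1b. The headers name featureCounts 1.6.0 with Ensembl release 77 and paired, strand-specific options, whereas version 1.4.6 and a single-read kit stand in the methods. Reads in exons shared by genes of 1 strand, or with several alignments, are not counted under these settings.

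Counts were fitted with edgeR 4.0.16 in R 4.3.3 (filterByExpr, TMM, robust quasi-likelihood F test) over 16439 genes, with Benjamini-Hochberg adjustment and calls at 0.01. SEs were the log2 fold change over the root of F, and 95% intervals were 1.96 SE on either side. That multiplier ignores the few residual degrees of freedom of the F test, so the intervals are too narrow. Calls rest on the adjusted p alone. CPM use TMM-adjusted library sizes. Tables were made with Python 3.11.15, and scripts were tested on simulated data. Symbols were found for 56105 of 64253 genes (87.3%). Named genes were the 8 genes, their family, preset pathway genes, and in each list the 4 largest called changes at an average log2 CPM not under 1 whose groups do not overlap. The genes and lists were chosen with earlier results of these data known. The methods state 3 independent samples per group, but the labels do not name separate cultures, so p-values measure the spread between these samples.

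Samples of equal number deviated together weakly (r = 0.121, 0.126 and 0.117 over 10282 genes). Those of unequal number gave r from -0.204 to 0.104, so whether the samples are paired is not settled. The main fit was unpaired, and a fit with the replicate number as a block was an alternative. Blocked values stand beside results whose call they change. Alternatives were DESeq2 1.42.0, other scalings and filters, the block, a threshold of 0.05 and each library left out. A few genes of the family and the marker lists are not reported here.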

Additional observations from a re-analysis of the deposited data

How the results depend on the processing

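IRF7, STAT2 and IRF2 passed in all 12 alternative fits. The number of the 8 genes that rose was 3 to 5 with each library left out, 5 being without shCdGAP library 2, which adds IRF3 and IRF9, and 6 at a threshold of 0.05. STAT6 ran from -0.06 to 0.04 with each library left out, and was at -0.01 by DESeq2 (adjusted p = 0.962), -0.06 without shCdGAP library 2 (0.226), -0.01 without shCon library 1 (0.927) and -0.02 without shCon library 2 (0.863). The replicate block gave IRF7 1.97 (adjusted p = 5.52e-06) and STAT2 0.90 (7.39e-06) and, among the 8 genes, changed no call but that of IRF9. Ligands that rose numbered 2 by DESeq2, 2 with no filter on low counts and 2 at 0.05, where 1 fell. IRF1-type genes that fell numbered 1 with at least 10 reads in every library. STAT3 targets that rose numbered 4 by library-size scaling and 5 at 0.05. With each library left out, ligands that rose numbered 0 to 3, receptors that rose 1 to 3 and fell 3 to 8, Janus kinases that rose 0 to 2 and fell 1 to 2, sensors that rose 3 to 7, and inhibitors that rose 2 to 9. IRF1-type genes that fell then numbered 1 to 3, and STAT3 targets that rose 2 to 4 and fell 5 to 11. Over all genes, calls with an absolute log2 fold change above 1 then numbered 1220 to 1469 higher and 634 to 900 lower. In the main fit these were 1407 and 689. The causes were not tested. IRF9 rests on 29 to 91 reads in a library, IRF4 was too low to test, and STAT3 gave no value.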
